A study of Mus musculus with 8 samples.

Results

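Transcripts of 10 genes that build and regulate the contractile apparatus of heart muscle cells were followed in RNA-seq of the mouse aorta: Actc1, Myh6, Myl7, Myl4, Myl2, Tnnt2, Tnni3, Tnnc1, Mybpc3 and Sln. They were chosen by gene symbol from the 48607 loci of the deposited table, and where a symbol named several loci the one with the largest summed count was taken, which decided only for Myl4. The summed count therefore chose the Myl4 locus, and the list itself was drawn up with earlier results of these data known, so the values below are given as a description of these 10 genes and not as support for the choice. All 10 symbols were found, at 10 separate loci that each carried 1 gene name.

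The libraries came from the entire aorta of mice that lack apolipoprotein E (ApoE-/-), a model of atherosclerosis, and of mice that lack both apolipoprotein E and the natriuretic peptide receptor C (NPRC-/-ApoE-/-), all fed a Western diet for 12 weeks. The NPRC-/- line carries a CRISPR frameshift in the first exon of Npr3 in all cells, was made from C57BL/6 mice and was crossed with ApoE-/- mice, and the controls were littermates, so ApoE deficiency and the diet were shared by both groups. The titles give 5 ApoE-/- libraries (1 to 5) and 3 NPRC-/-ApoE-/- libraries (1 to 3), whereas the separate genotype entry named the opposite genotype for 4 of the 8 libraries: the samples titled ApoE-/- 4 and 5 were entered as Nprc-/-Apoe-/-, and NPRC-/-ApoE-/- 1 and 2 were entered as Apoe-/-. The study's methods give sex (male) and age for the purchased ApoE-/- mice alone, and the age and sex of the crossed littermates that were sequenced are not given in the sources used here. Each library is called below by its title.

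The sarcomere of striated muscle slides thick filaments of myosin along thin filaments of actin, and the heart uses its own set of isoforms for both. Calcium released into the cell binds troponin C, and troponin I and troponin T then let myosin heads reach the actin filament. Atrial and ventricular cardiomyocytes use different myosin light chains, Myl7 and Myl4 in the atrium and Myl2 and Myl3 in the ventricle, while smooth muscle cells of the aortic wall contract with another myosin and another actin and have no troponin.

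The total count was between 62969165 and 86693276 per library, and each pair of libraries differed by more than sampling noise (smallest mean chi-square per locus 101). Npr3, the targeted gene, had 1.69, 0.93, 0.62, 1.01 and 1.67 FPKM under the title ApoE-/- and 1.18, 1.39 and 1.13 FPKM under NPRC-/-ApoE-/-. FPKM relates the fragments of a locus to its transcript length and to the depth of the library. A frameshift need not lower the RNA, so these overlapping values do not decide between the titles and the genotype entries. Nothing in the sources says which aortas came from which litter or day, and p-values measure only the spread between these samples. The aortic label was checked against smooth muscle genes, and the summed FPKM of 10 such genes (Acta2, Myh11, Tagln and others) was 1353 to 2995.

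The 10 cardiomyocyte genes were rare transcripts in these aortas and differed widely between libraries. Together they made up 0.000644 to 0.005134% of the counts of a library. Their FPKM values summed to 7.21, 15.4, 12.2, 1.74 and 3.28 under the titles ApoE-/- 1 to 5 and to 1.70, 5.30 and 2.50 under NPRC-/-ApoE-/- 1 to 3. The 3 highest sums were those of ApoE-/- 1, 2 and 3, while ApoE-/- 4 and 5 lay among the values of the other title, so the titled groups overlapped. For 7 of the 10 genes (Actc1, Myh6, Myl7, Tnni3, Tnnc1, Mybpc3 and Sln) the same 3 libraries also held the 3 highest FPKM values. The library titled ApoE-/- 2 was highest for 6 genes and ApoE-/- 3 for 3 genes. In bulk tissue, fewer cells of a type and less RNA per cell cannot be told apart.

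**Figure D1:**
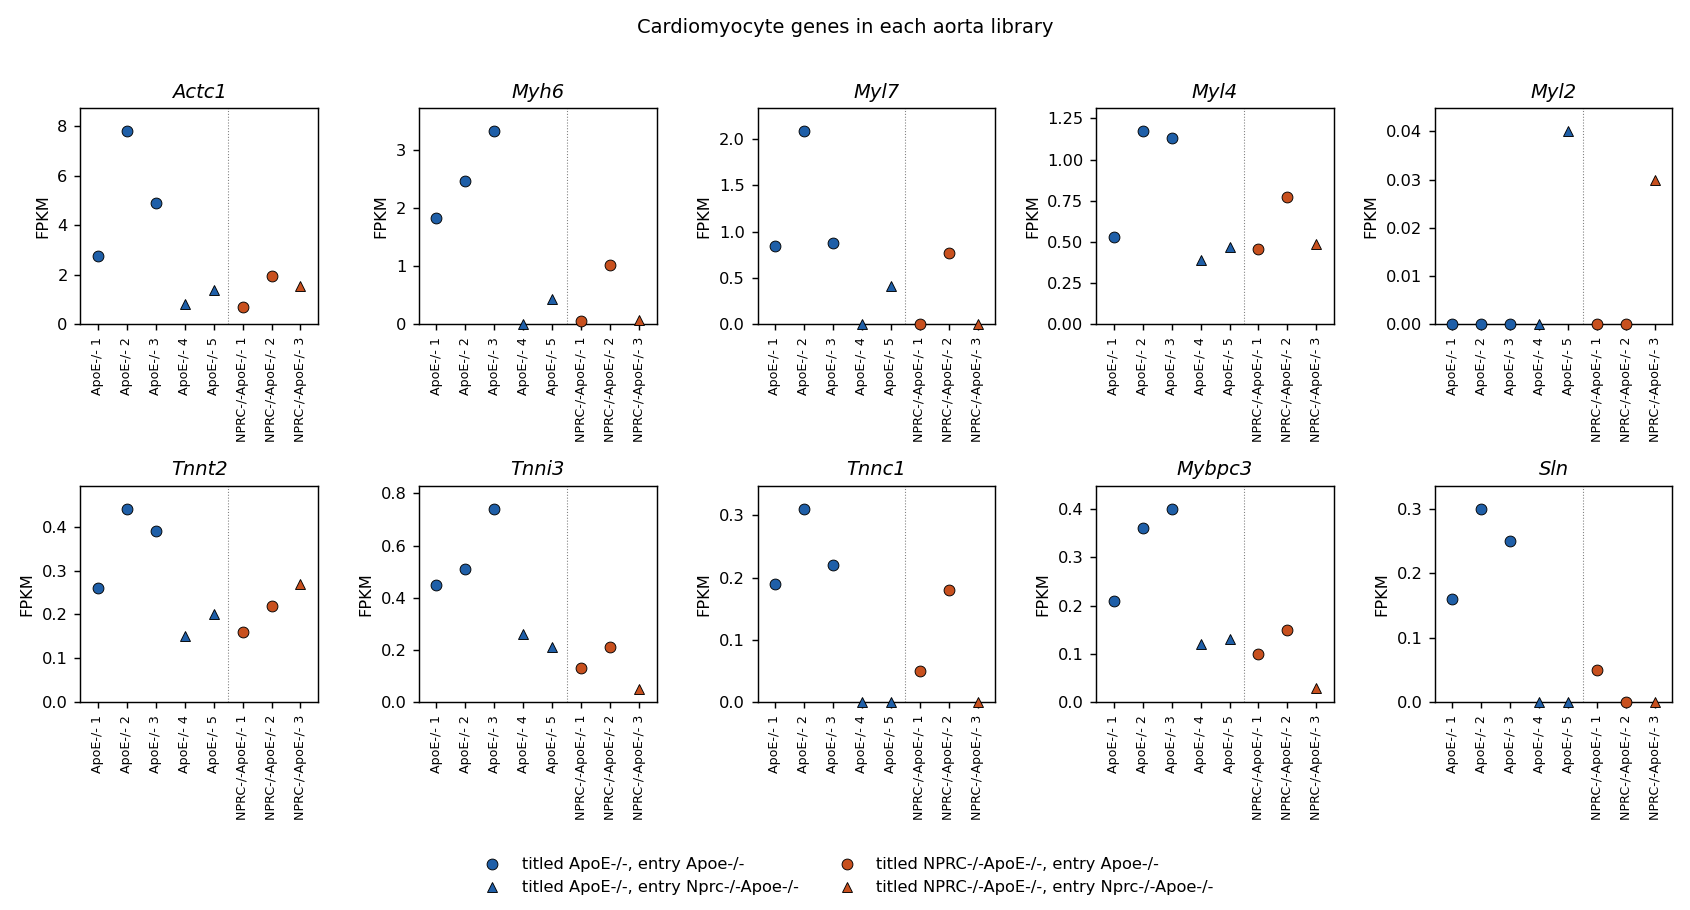
FPKM (y axis, from 0, with its own scale in each panel) of the 10 cardiomyocyte genes in each of the 8 libraries (x axis), with colour for the title, circles for the genotype entry Apoe-/- and triangles for Nprc-/-Apoe-/-. In 7 of 10 panels the libraries titled ApoE-/- 1, 2 and 3 are the 3 highest, and ApoE-/- 4 and 5 lie low together with most of the libraries titled NPRC-/-ApoE-/-.

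The promoters of Actc1, Myl7 and Mybpc3 are shown, because these genes varied together over the libraries and because they are the members with a CArG or MEF2 box. They were taken from RefSeq (GRCm38.p6), 5′ to 3′ along the gene, as the 250 bases before the transcription start, with capitals marking matches to a CArG box (the site of serum response factor), a MEF2 box or a GATA motif (AGATAA or TGATAA), each searched on both strands.
Actc1 promoter, chr2:114052876-114053125, minus strand: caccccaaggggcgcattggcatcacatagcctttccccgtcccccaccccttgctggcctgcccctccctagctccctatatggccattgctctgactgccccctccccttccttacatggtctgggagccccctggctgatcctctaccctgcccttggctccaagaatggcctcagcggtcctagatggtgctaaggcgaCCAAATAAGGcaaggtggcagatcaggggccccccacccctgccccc
Myl7 promoter, chr11:5898783-5899032, minus strand: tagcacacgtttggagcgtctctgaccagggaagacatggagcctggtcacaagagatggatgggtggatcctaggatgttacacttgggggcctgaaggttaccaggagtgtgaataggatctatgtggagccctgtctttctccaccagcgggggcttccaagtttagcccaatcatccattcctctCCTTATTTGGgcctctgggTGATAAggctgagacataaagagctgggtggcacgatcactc
Mybpc3 promoter, chr2:91117894-91118143, plus strand: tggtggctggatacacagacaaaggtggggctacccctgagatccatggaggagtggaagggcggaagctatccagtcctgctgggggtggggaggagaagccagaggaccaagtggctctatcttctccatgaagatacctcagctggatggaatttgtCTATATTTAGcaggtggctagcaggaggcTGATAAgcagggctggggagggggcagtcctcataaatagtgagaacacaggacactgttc
RefSeq gave 11 promoters for 9 of the members, and Sln had none in the table. A CArG box was found in 2 of the 11, those of Actc1, starting 47 bases upstream of the start site, and of Myl7, starting 61 bases upstream, and in 1.5% of 32851 promoters of the same length. The only MEF2 box stood in the Mybpc3 promoter (2.9% of all promoters held one), 90 bases upstream. GATA motifs were found for 4 genes, Mybpc3, Myl2, Myl7 and Tnnt2, and in 16.6% of all promoters. The E-box CANNTG was found for 7 genes in 9 of the 11 promoters, and in 66.2% of all. None of the printed matches overlapped another, and a match describes letters and not binding.

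Actc1 encodes cardiac alpha-actin, the main actin of the heart's thin filament, with its locus on chromosome 2 at 114047282 to 114053548 (minus strand, GRCm38). It was the most abundant member, with a mean FPKM above that of 81.9% of all loci. Its FPKM values were 2.74, 7.78, 4.88, 0.82 and 1.39 under the title ApoE-/- and 0.70, 1.97 and 1.56 under NPRC-/-ApoE-/-. The mean was 3.52 ± 2.85 (SD, n = 5) against 1.41 ± 0.648 (SD, n = 3), and the groups overlapped because ApoE-/- 4 and 5 were as low as the other title. Group differences were tested with edgeR's quasi-likelihood test on the counts of the 20506 loci that reached 1 FPKM in 3 or more libraries, and adjusted p-values follow Benjamini and Hochberg. The log2 fold change of NPRC-/-ApoE-/- against ApoE-/- was -1.29 (SE 0.713, 95% interval -2.90 to 0.33), with an adjusted p of 0.448. It was -1.52 without the library titled ApoE-/- 4 and -0.80 without ApoE-/- 2. The level of Actc1 stayed far under that of Acta2, the smooth muscle actin, with an FPKM ratio of at most 0.00693 in a library. The coding sequences of Actc1 and Acta2 share no run longer than 23 bases in the GENCODE M21 transcripts compared, and those of Actc1 and Actg2 none longer than 38, and untranslated regions were not compared.

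Myh6, the alpha-myosin heavy chain that is the motor of atrial muscle and of the adult mouse ventricle, has its locus on chromosome 14 at 54941921 to 54966641 (minus strand). The FPKM values of Myh6 were 1.83, 2.46, 3.32, 0 and 0.43 under the title ApoE-/- and 0.05, 1.03 and 0.07 under NPRC-/-ApoE-/-. In counts this was 1214, 1331 and 2205 in ApoE-/- 1 to 3, 0 and 266 in ApoE-/- 4 and 5, and 33, 535 and 49 in the other group. The library titled ApoE-/- 4 thus had 0 counts where ApoE-/- 3, of the same title and nearly the same depth, had the most. By counting error alone, 0 counts allow up to 3 counts, or 0.0355 CPM (counts scaled to the library total). Whether few reads could have been set to 0 in the assembly is not given in the sources used here. The means were 1.61 ± 1.39 FPKM (SD, n = 5) and 0.383 ± 0.560 FPKM (SD, n = 3), and the groups overlapped at both ends. Its log2 fold change was -2.09 (SE 1.60, 95% interval -5.71 to 1.53), with an adjusted p of 0.576 in edgeR. It was -4.72 (adjusted p = 0.755, edgeR) without the library titled NPRC-/-ApoE-/- 2, which held most of the Myh6 counts of its group.

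Myh7, the beta-myosin heavy chain of slow muscle and of the stressed heart, is the neighbour of Myh6 and is not a member. Its counts were 76, 60, 55, 5 and 5 under the title ApoE-/- and 85, 26 and 6 in the others. The FPKM ratio of Myh6 to Myh7 was 20.3, 30.8 and 55.3 in ApoE-/- 1, 2 and 3, 43.0 in ApoE-/- 5, 25.8 in NPRC-/-ApoE-/- 2 and 7.0 in NPRC-/-ApoE-/- 3. In ApoE-/- 5 and NPRC-/-ApoE-/- 3 it divides by 0.01 FPKM of Myh7, which rests on 5 and 6 counts. In the library titled NPRC-/-ApoE-/- 1 the ratio was 0.556, the only library with counts of Myh6 in which Myh7 was the higher of the pair. The coding sequences share a run of 245 bases, and 34.7% of the 30-base words of Myh6 occur in Myh7, so reads from these stretches could be counted for either gene.

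Actc1 and Myh6 were the only members that passed the filter on low values, and 0 of these 2 met the study's criterion (more than 2-fold in either direction, that is above 2 or below 0.5, and p under 0.05 before adjustment), which 3.47% of the 20506 loci met (2.39% in the lower direction). Grouped by the genotype entry, 0 of 2 met it as well, beside 0.463% of all loci. The log2 fold change was then -1.50 for Actc1 (SE 0.683, adjusted p = 1, edgeR) and -3.46 for Myh6 (SE 1.53, adjusted p = 1, edgeR), and 0 of 2 had an unadjusted p under 0.05, beside 1.31% of all loci. By title, Actc1 met the criterion once ApoE-/- 4 was left out, and Myh6 once NPRC-/-ApoE-/- 2 was, but the share of all loci in those fits is not given here. In all, 0 of the 20506 loci had an adjusted p under 0.05 in edgeR (smallest 0.0525), while 13.6% had an unadjusted p under 0.05, of which none was a member. In the 4 libraries with matching labels (3 against 1), where the lone NPRC-/-ApoE-/- library is assumed to vary like the others, both members met the criterion by edgeR, with log2 fold changes of -1.65 (adjusted p = 0.37) for Actc1 and -5.11 (adjusted p = 0.162) for Myh6, beside 8.85% of all loci. With DESeq2 on all 8 libraries 1 of 2 met it, Actc1, beside 3.89% of all loci.

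The other 8 members were too low for that filter, and their group differences come from the same edgeR test without a filter, on 44689 loci with at least 1 count. Its criterion was met by 5.12% of all loci by title (3.45% in the lower direction), and by 2 of the 10 members, Tnni3 and Mybpc3, both lower. The same 2 had an unadjusted p under 0.05, beside 10.4% of all loci. The median log2 fold change of the 10 members was -1.33, and -1.37 over the 9 members without Myl2, beside -0.04 over all loci. Among the marker lists described below, it was -1.70 over 6 mesothelial genes and -0.90 over 7 cardiac transcription factors. It was 0.40 over 20 other cardiac sarcomere genes and 0.70 over 21 skeletal muscle loci. Of the 10 members, 9 had a negative value and Myl2, with 13 counts, a positive one, while 23758 of the 44689 loci were negative. Of the 10, 0 had an adjusted p under 0.05, in edgeR with or without the filter, and the same held for Actc1 and Myh6 in DESeq2 and in limma. The titled groups overlapped in FPKM for each of the 10 members, whereas they did not overlap for 5.61% of all loci (7.25% of those that passed the filter).

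**Figure D2:**
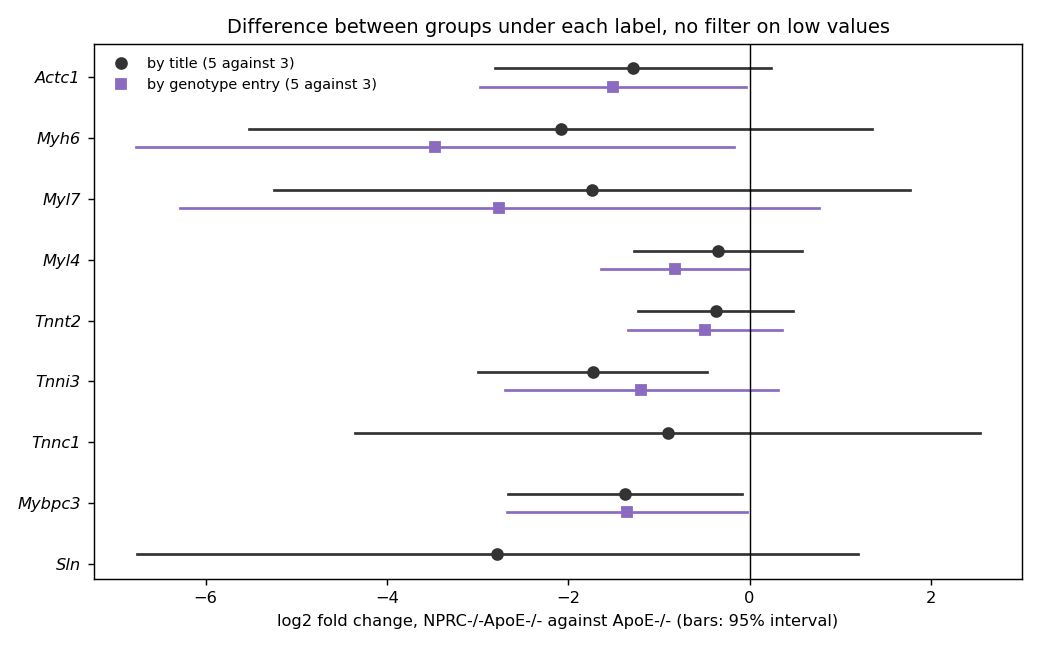
Log2 fold change of NPRC-/-ApoE-/- against ApoE-/- (x axis) for 9 cardiomyocyte genes (y axis) from the edgeR fit without a filter, by title (circles) and by genotype entry (squares), with bars for the 95% interval. By title, the interval excludes 0 only for Tnni3 and Mybpc3. Myl2 is left out because it had 13 counts in all, and Tnnc1 and Sln have no square because they had 0 counts in each library of 1 group.

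The myosin light chains stabilize the lever arm of the myosin head, and their isoform tells atrial from ventricular muscle. Myl7, the atrial regulatory light chain (chromosome 11, from 5896637 to 5898782, minus strand), had an FPKM of 0.84, 2.08, 0.88, 0 and 0.41 under the title ApoE-/-. Under NPRC-/-ApoE-/- it was 0, 0.77 and 0. These values rest on 49, 99, 52, 0 and 23 counts and on 0, 35 and 0 counts. Counts of Myl7 were thus above 0 in 4 of 5 libraries of one title and in 1 of 3 of the other, and the log2 fold change was -1.74 (SE 1.58, adjusted p = 0.652, edgeR). Without the library titled NPRC-/-ApoE-/- 2 all remaining libraries of that title had 0 counts, and Myl7 then met the unadjusted criterion (adjusted p = 0.792, edgeR). The share of all loci that met it in that fit is not given here.

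Myl4, the atrial essential light chain (chromosome 11, plus strand, locus from 104550493 to 104587215), was read in all 8 libraries. Its FPKM values were 0.53, 1.17, 1.13, 0.39 and 0.47 under the title ApoE-/- and 0.46, 0.77 and 0.49 in the others. The mean was 0.738 ± 0.380 (SD, n = 5) against 0.573 ± 0.171 (SD, n = 3), a log2 fold change of -0.35 (SE 0.417, 95% interval -1.28 to 0.58, adjusted p = 0.751, edgeR). A further locus named Myl4 lies inside this one on the minus strand, from 104572953 to 104574796, with 0.90 to 1.88 FPKM. The libraries were made with a method that keeps the strand, but whether the counting used it is not given in the sources used here, so reads of these overlapping loci may not have been told apart.

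Myl2, the ventricular regulatory light chain and one of the most abundant transcripts of the ventricle, was nearly absent. It had 7 counts in the library titled ApoE-/- 5, 6 counts in NPRC-/-ApoE-/- 3 and 0 counts in the other 6 libraries, among them ApoE-/- 1, 2 and 3, where the atrial light chain Myl7 had 49, 99 and 52 counts. In FPKM this was 0.04 and 0.03. No fold is given for so few counts. Myl2 was the single member that was highest outside ApoE-/- 2 and 3.

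Among the troponins, Tnnt2 anchors the complex to the thin filament, Tnni3 is the inhibitory subunit and Tnnc1 the calcium sensor. Tnnt2 had an FPKM of 0.26, 0.44, 0.39, 0.15 and 0.20 under the title ApoE-/- and of 0.16, 0.22 and 0.27 under NPRC-/-ApoE-/-. Its log2 fold change was the second smallest in size after Myl4, -0.37 (SE 0.383, 95% interval -1.23 to 0.48), with an adjusted p of 0.697 in edgeR. The library titled NPRC-/-ApoE-/- 3 was above ApoE-/- 1 for this gene, which was the case for no other member with counts in ApoE-/- 1.

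Tnni3 (chromosome 7, minus strand, locus from 4518305 to 4522794) had an FPKM of 0.45, 0.51, 0.74, 0.26 and 0.21 under the title ApoE-/- and of 0.13, 0.21 and 0.05 in the others. The groups met at 0.21 FPKM, shared by ApoE-/- 5 and NPRC-/-ApoE-/- 2, and the means were 0.434 ± 0.212 (SD, n = 5) and 0.130 ± 0.080 (SD, n = 3). For Tnni3 the log2 fold change was -1.73 (SE 0.567, 95% interval -2.99 to -0.47, adjusted p = 0.374, edgeR), so Tnni3 fell by the unadjusted criterion and not after adjustment. Tnni3 met that criterion without each library in turn (log2 fold changes -2.17 to -1.33). By genotype entry it was -1.19 and did not meet it (adjusted p = 1, edgeR).

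Tnnc1 had 21, 27, 23, 0 and 0 counts under the title ApoE-/- and 6, 15 and 0 under NPRC-/-ApoE-/-. In FPKM this was 0.19, 0.31, 0.22, 0 and 0 against 0.05, 0.18 and 0. The 3 libraries at 0 were exactly the 3 that the genotype entry names Nprc-/-Apoe-/-, and Tnnc1 was the only member whose groups did not overlap by that entry, as was the case for 1.15% of all loci (0.97% of those that passed the filter). By that entry it was at least 20-fold lower, computed from 92 counts over 5 libraries against a floor of 3 counts over the group. This bound covers counting error only and not the spread between mice. The adjusted p of Tnnc1 by that entry was not under 0.05 (edgeR without the filter). By title, the log2 fold change was -0.90 (SE 1.55, adjusted p = 0.842, edgeR). Whether the assembly set loci with few reads to 0 is not given in the sources used here.

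Mybpc3, the cardiac myosin-binding protein C that lies along the thick filament and tunes the rate of contraction (chromosome 2, plus strand, locus from 91118144 to 91136510), had an FPKM of 0.21, 0.36, 0.40, 0.12 and 0.13 under the title ApoE-/-. Under NPRC-/-ApoE-/- it was 0.10, 0.15 and 0.03. Libraries ApoE-/- 1 to 3 were above all the others, and NPRC-/-ApoE-/- 2 was above ApoE-/- 4 and 5. The log2 fold change was -1.37 (SE 0.579, 95% interval -2.66 to -0.08, adjusted p = 0.458, edgeR). Mybpc3 met the unadjusted criterion no longer without ApoE-/- 2 (log2 fold change -1.21), ApoE-/- 3 (-1.08), NPRC-/-ApoE-/- 1 (-1.43) or NPRC-/-ApoE-/- 3 (-0.96). By genotype entry its value was -1.35 (adjusted p = 1, edgeR).

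Sln encodes sarcolipin, a short membrane peptide that slows the calcium pump of the sarcoplasmic reticulum and that is abundant in the atrium. Its coding sequence is printed because it is complete in 96 bases (31 codons and a stop, GENCODE M21).
Sln coding sequence: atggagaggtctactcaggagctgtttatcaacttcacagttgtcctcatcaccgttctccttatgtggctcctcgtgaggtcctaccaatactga
Sln had 21, 32, 33, 0 and 0 counts under the title ApoE-/- and 8, 0 and 0 under NPRC-/-ApoE-/-. In FPKM this was 0.16, 0.30, 0.25, 0 and 0 against 0.05, 0 and 0. The 3 libraries with the most counts were again ApoE-/- 1, 2 and 3, and ApoE-/- 4 and 5 had 0 counts, so the titled groups overlapped. The log2 fold change by title was -2.78 (SE 1.78, 95% interval -6.76 to 1.19, adjusted p = 0.564, edgeR). By genotype entry Sln was at least 20.4-fold lower, from 94 counts over 5 libraries against a floor of 3 counts over the group. However, NPRC-/-ApoE-/- 2, which that entry places with Apoe-/-, also had 0 counts. The bound covers counting error only, and the adjusted p of Sln by that entry was not under 0.05 (edgeR without the filter).

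Without the filter and by genotype entry, a combination chosen after seeing the data, 6 of the 10 members met the unadjusted criterion of fold and p in edgeR, beside 1.76% of all loci (0.714% in the lower direction), and 0 had an adjusted p under 0.05. An unadjusted p under 0.05 was found for 7 members, Myl4 in addition, beside 2.22% of all loci. Those that met the criterion were Actc1, Myh6, Tnnc1, Mybpc3 and Sln, which were lower, and Myl2, which was higher and rests on 13 counts. Tnni3, which met the criterion by title, was not among them. Mybpc3 met the criterion under both labels. The libraries titled ApoE-/- 1, 2 and 3, the highest for 7 of the 10 members, are named ApoE-/- by both labels.

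Over the 8 libraries, 9 of the 10 members varied together. The log2 CPM (with a prior count of 2) of the 9 members without Myl2 form 36 pairs, whose Pearson correlations were 0.475 to 0.978 with a median of 0.727, and 35 of them were above 0.5. Tnni3 and Mybpc3 were the closest pair, with a correlation of 0.978. Myl2 went the other way, with a negative correlation with each of the 9 (-0.11 with Tnnt2 to -0.70 with Tnnc1), and it rests on 13 counts. These are descriptions over 8 points that share their libraries and depth, and zero counts enter them as a common floor value.

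Outside the gene lists, the loci with a mean of at least 1 FPKM whose log2 CPM followed the mean of the members most closely included Camk1d (r = 0.934), Kif2a, Irf1, Hist1h2ai, Scfd2, Ccl19, Arhgap19, Pxn and Rock2 (r = 0.894), of 17277 candidates over 8 libraries. For Myl7 alone they included Nab1 (r = 0.979), Gm47615, Ikzf2 and Sik3. For Myl2 alone, Abca1 came first (r = 0.967), with 7.06 FPKM in ApoE-/- 5, 5.71 FPKM in NPRC-/-ApoE-/- 3 and at most 0.83 FPKM in the other libraries, and others were Nr3c2, Svs5 and Gm44341. None of these genes encodes a sarcomere protein. The candidates were limited by mean FPKM and to loci with 1 gene name, however. This left out low sarcomere genes such as Mybphl (mean 0.11 FPKM) and Csrp3 (0.04 FPKM), so their absence says little. The range over libraries was 1.03 to 1.82 FPKM for Camk1d.

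The chamber markers were set side by side. Beside the members Myl7, Myl4 and Sln, the list of 11 atrium-enriched genes holds Mybphl, a relative of myosin-binding protein C of atrial muscle, and Nppa, the atrial natriuretic peptide, a ligand of the deleted receptor. Mybphl had an FPKM of 0.18, 0.22, 0.39, 0.02 and 0.05 under the title ApoE-/- and of 0, 0 and 0.02 in the others. The groups met at 0.02 FPKM, and Mybphl met the unadjusted criterion without the filter (adjusted p = 0.36, edgeR), although with so few counts under NPRC-/-ApoE-/- no fold is given. Kcnj5, a potassium channel subunit of atrial and nodal cells, had 19, 27 and 8 counts in ApoE-/- 1, 2 and 3 and 0 counts in the other 5 libraries. This puts it at least 10.8-fold lower by title, against a floor of 3 counts over the group, a bound that covers counting error only. The titled groups overlapped at 0 counts, and the adjusted p of Kcnj5 was 0.427 (edgeR without the filter).

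Nppa did not share this order. Its FPKM values were 0.32, 0.90, 0.75, 0.19 and 0.19 under the title ApoE-/- and 0.16, 1.02 and 0.38 in the others, with the highest value in NPRC-/-ApoE-/- 2. Nppa had a log2 fold change of 0.15 (SE 0.703, adjusted p = 0.957, edgeR without the filter). Without the filter 10 of the 11 atrium-enriched genes had counts, of which 1 fell (Mybphl) and 1 rose (Kcna5, also a channel of vascular smooth muscle) by the unadjusted criterion, with a median of -0.86 over all 10, of which 3 are members. Bmp10 was not analysed here. Of the 5 ventricle-enriched genes, Irx4 had 0 counts in all libraries, Myl2 13 in all, Myh7 at most 0.09 FPKM and Myl3, also a slow skeletal muscle gene, 0.40 to 0.95 FPKM. Hey2 shares its locus with other genes and could not be read alone. None of the ventricle-enriched genes met the criterion by title, with a median of 0.33 over 4 genes. By genotype entry Myh7 was lower (log2 fold change -3.51, SE 0.476, adjusted p = 0.669, edgeR without the filter).

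**Figure D3:**
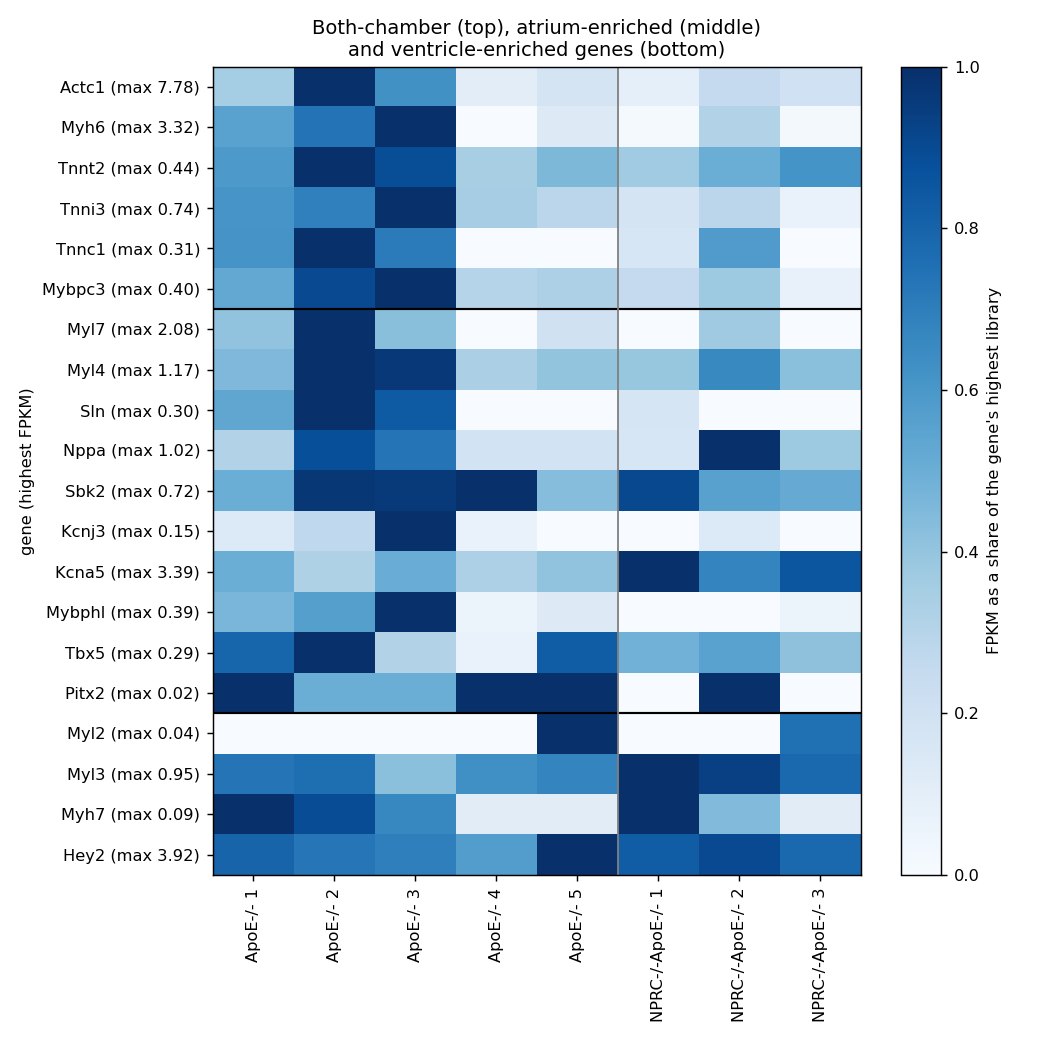
FPKM of each gene as a share of its own highest library (shade, 0 to 1) in the 8 libraries (x axis), for members used in both chambers (top), atrium-enriched genes (middle) and ventricle-enriched genes (bottom), with the highest FPKM in parentheses. The rows of Myh6, Myl7, Sln and Mybphl are darkest in ApoE-/- 1, 2 and 3, whereas Sbk2, Kcna5, Nppa and Myl3 reach their highest value in another library, and Hey2 stands for a locus that it shares with other genes.

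Other cardiac genes were described by list. Of 20 other sarcomere genes of the heart, 8 passed the filter, and their median log2 fold change by title was 0.66, beside -0.01 over all loci tested. One of them, Synpo2l, rose by the unadjusted criterion, with 1.13 (SE 0.382, adjusted p = 0.303, edgeR), and 0 of 8 did by genotype entry. Ldb3, Xirp1 and the locus that Myom1 shares with another gene had unadjusted p under 0.05 in the higher direction with smaller changes (0.67 to 0.90). Of 8 calcium handling genes, 4 were tested and 0 met the criterion by title, with 0.89 for the ryanodine receptor Ryr2 and 0.89 for the junction protein Jph2. Of 7 channels and connexins, 2 were tested with the filter, of which Kcna5 rose by the unadjusted criterion (1.06, SE 0.224, adjusted p = 0.222, edgeR), and by genotype entry it was -0.14. Without the filter, 3 of the 7 met the criterion by title with a median of -0.67 over the list, namely Kcna5 in the higher direction and Kcnj5 and the pacemaker channel Hcn4 in the lower, and Hcn4 had a log2 fold change of -1.57 by title (SE 0.496, adjusted p = 0.362, edgeR) and -0.02 by genotype entry. Of 9 genes of striated muscle metabolism, 7 were tested and 0 met the criterion by title, while by genotype entry 1 did, the oxygen-binding protein gene Mb, which was lower (log2 fold change -1.64, SE 0.650, adjusted p = 1, edgeR) and had a value of 0.74 by title. Of the 4 cardiac peptide and stress genes only Ankrd1 was tested, of 8 cardiac transcription factors 2 were, and 0 of these 3 met the criterion by title. Nkx2-5, a transcription factor that marks cardiomyocytes, had 4 counts in ApoE-/- 2 and 0 in the other 7 libraries.

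Markers of other cells were compared with the members library by library. The summed FPKM of the 9 members without Actc1 was 4.47, 7.63, 7.33, 0.92 and 1.89 under the title ApoE-/- and 1.00, 3.33 and 0.94 in the others. The summed FPKM of 21 loci of 22 skeletal muscle genes was 20.2, 4.96, 4.62, 4.38 and 28.7, and 18.2, 24.5 and 18.8. Skeletal muscle transcripts were thus low in ApoE-/- 2 and 3, the libraries with the most cardiomyocyte transcripts, and in ApoE-/- 4, which had the least, and the mean log2 level of that list had a correlation of -0.255 with that of the members over 8 libraries. In ApoE-/- 2 and 3 the skeletal gene Tnnc2 was at 0 and the locus of Myh2 and Myh4 had 4 counts in each. Other genes of the list were read there, such as Neb (407 and 433 counts) and Casq1 (381 and 463 counts). Of the 7 skeletal loci tested, 0 met the criterion by title or by genotype entry (median by title 0.87).

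Smooth muscle genes had overlapping sums of 1353 to 1806 FPKM under the title ApoE-/- and of 1753 to 2995 under NPRC-/-ApoE-/-, and the correlation of the list with the members was -0.266. All 10 were tested and 0 met the criterion. By title, 9 had an unadjusted p under 0.05 in the higher direction (edgeR), beside 1335 of all 20506 loci, and 0 had an adjusted p under 0.05. By genotype entry, 0 of the 10 had an unadjusted p under 0.05. The median was 0.64 by title and 0.17 by genotype entry. The mesothelial list, which marks the covering of the heart and of the chest cavity, stood out in 1 library, ApoE-/- 2, with a sum of 5.64 FPKM, beside 0.15 to 1.01 FPKM in the other 7. The member sum was highest in this same library, but it was 12.2 FPKM in ApoE-/- 3, where the mesothelial sum was 0.27 FPKM. Gata4, expressed in cardiomyocytes and mesothelium, had 337 counts in ApoE-/- 2 and 8 to 32 in the others. The macrophage sum was 114 to 268 FPKM under ApoE-/- and 66.1 to 133 FPKM under NPRC-/-ApoE-/-, and the fibroblast sum 506 to 1332 and 282 to 701 FPKM. By title, the 6 macrophage genes had a median of -0.97 and 1 met the criterion, C1qa, which was lower (log2 fold change -1.37, SE 0.434, adjusted p = 0.285, edgeR), and the 6 fibroblast genes had a median of -0.85 and 0 met it. By genotype entry 0 did in either list, with medians of -0.16 and -0.09. Endothelial genes (76.4 to 93.0 FPKM), white adipocyte genes (100.2 to 412 FPKM) and brown adipocyte genes (116 to 558 FPKM) overlapped between the titles too. Over the 8 libraries, the correlation with the mean level of the members was 0.93 for the 7 atrium-enriched genes that are not members. It was 0.847 for the channels and connexins, a list that shares Kcnj3 and Kcna5 with the atrium-enriched one. The value was 0.564 for cardiac transcription factors, and 0.558 both for the other sarcomere genes and for the ventricle-enriched genes that are not members. Striated muscle metabolism had 0.343, cardiac peptides and stress genes 0.246 and calcium handling genes 0.067. Endothelial genes had 0.327, mesothelial 0.323, fibroblast 0.299 and macrophage genes 0.259, and white and brown adipocyte genes -0.11 and -0.131. The part of each of these tissues in the member values was not tested.

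**Figure D4:**
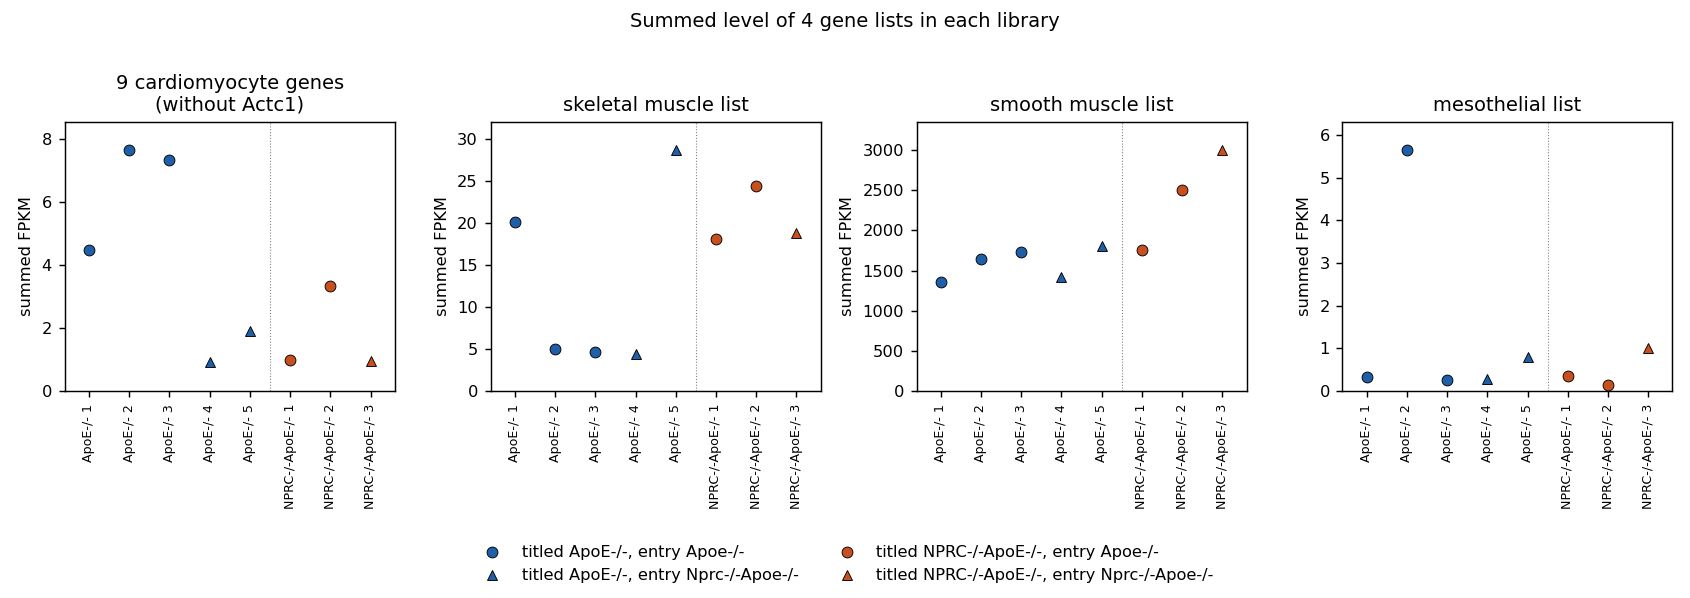
Summed FPKM (y axis, from 0) of the 9 cardiomyocyte genes without Actc1, of skeletal muscle genes, of smooth muscle genes and of mesothelial genes in each library (x axis), coloured by title, with circles for the genotype entry Apoe-/- and triangles for Nprc-/-Apoe-/-. The cardiomyocyte sum is highest in ApoE-/- 2 and 3 (7.63 and 7.33), where the skeletal muscle sum is low (4.96 and 4.62), and the mesothelial sum is high in ApoE-/- 2 alone.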

How the data were processed

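Poly(A) RNA of whole aortas was sequenced in 8 libraries. Low-quality bases were removed by the authors (cutadapt 1.9 in the submitters' processing notes), reads were mapped with HISAT2 and assembled with StringTie, and the authors deposited whole-number counts per locus, without normalization, and FPKM values, scaled to transcript length and mapped fragments. The submitters' notes name GRCm38, and all 13465 Ensembl loci overlapped their GENCODE M21 gene. How counts were derived is not given in the sources used here. Of the per-sample columns, 0 lacked a sample. The deposited GO and KEGG annotation was not used, and 1686 loci without a gene name could not be matched to a symbol.

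The 20506 loci that reached 1 FPKM in 3 or more libraries were analysed with edgeR 4.0.16 in R 4.3.3 (TMM, quasi-likelihood test, Benjamini-Hochberg adjustment), grouped by title. Limma on log2(FPKM + 1) was planned for a table without counts and was kept as an alternative (limma 3.58.1), as was DESeq2 1.42.0. The criterion is that of the authors' methods (more than 2-fold up, or below 0.5, at p under 0.05 before adjustment). Precision is limited by the number of libraries (biological coefficient of variation 0.327), and floors of 3 counts cover counting error only. Named genes are the 10 members, genes of the marker lists and the loci most correlated with the member mean (10), Myl7 (5) and Myl2 (5), of which 1 gene is not reported here. Members and lists were chosen with earlier results of these data known. Alternatives covered the label, tool, scaling, filter, pseudocount (0.1), replicate block, locus per symbol and each library left out.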

Additional observations from a re-analysis of the deposited data

Results flagged for a closer look

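Among 19 groups of member values examined, 2 held a library far from the others. A rate of 1 in 20 would give about 0.95, but that rate does not hold for values at a floor of 0 counts. Both flags below rest on such values, so these numbers are not compared. Myl2 was at -3.14 log2 CPM in the library titled ApoE-/- 5, while the other 4 libraries of that title were at the floor of 0 counts. By genotype entry, Myl7 was at -5.26 log2 CPM, its floor of 0 counts, in the library titled NPRC-/-ApoE-/- 1, below the other 4 libraries entered as Apoe-/-.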

How the results depend on the processing

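The number of members that met the fold and p criterion was 0 by title with the filter and stayed at 0 by genotype entry, with median-ratio size factors, in both limma fits and with all loci of a symbol summed. For the 4 libraries whose labels match, which leave 1 library in a group, no number is given. The number was 1 with DESeq2 (Actc1, beside 3.89% of all loci) and 2 without the filter (5.12%). Without the filter by genotype entry, an alternative added after the data were seen, it was 6. Leaving out 1 library at a time gave 0 to 1 with the filter and 1 to 4 without it, the latter also added after the data were seen. The share of all loci that met the criterion in these leave-one-out fits is not given here. These counts can therefore not be set against all loci. In the 6 libraries numbered 1 to 3, the count was 2 with the title's number as a replicate block and 2 without the block. Of all loci, 800 met the criterion with the block and 917 without it. The numbers share no stated litter or day, the correlations of same-numbered libraries were -0.31, -0.11 and 0.01, and 0 of 6 libraries matched best with their own number, so the block is not used above. In the list of other cardiac sarcomere genes, the count called fell from 1 by title to 0 by genotype entry. Myl2 aside, no called member changed sign in the alternatives computed. The sign of Myl2, called without the filter by genotype entry, was not followed over the fits that left out 1 library. A mean of at least 5 FPKM left no member, so it gave no value. Their cause was not tested, and depth limits the members with few or 0 counts.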
